A study of Mus musculus with 2 samples.

Results

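EGR1 occupancy in the mouse frontal cortex was examined at 6 genes of the neurotrophin system: the secreted ligands Bdnf and Ntf3, the receptor tyrosine kinases Ntrk2 (TrkB) and Ntrk3 (TrkC), the low-affinity receptor Ngfr (p75) and Vgf, a neuropeptide precursor of secretory granules. Of the 12014 EGR1 peaks, 16 had their centre in the body of one of these genes or within 10 kb of one of their transcription start sites (TSS) in the GENCODE M21 annotation. 5 of the 6 genes had at least 1 peak. EGR1 is a zinc-finger transcription factor that neurons induce upon activity. The peaks came from chromatin immunoprecipitation and sequencing (ChIP-seq) of frontal cortices of 129SvEv/C57BL/6N F1 hybrid male mice aged 6 weeks, with neither a treatment nor a genetic modification given. Tissue of several animals was pooled for each ChIP, and 2 ChIP experiments were merged into a single list, so no value per experiment was available and no test between groups was possible. An input DNA library was also labelled, and no processed file of it was analysed here. Frontal cortex is a mixture of neurons, glia and vascular cells, so a peak cannot be given to a cell type, and no expression data were used here. Each peak carried an irreproducible discovery rate (IDR), which is read like a q-value: a low IDR marks a peak that ranked high and alike in both experiments. The IDR of all peaks ran from 3.59e-09 to 0.02, and the read depth behind each peak is unknown.

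Neurotrophins are small secreted proteins that support the survival, growth and synaptic plasticity of neurons. BDNF binds TrkB, neurotrophin-3 binds mainly TrkC, and p75 binds all neurotrophins and their precursors; the Trk receptors signal through adaptors to the Ras and phospholipase C pathways. Bdnf has a series of alternative first exons, each with its own promoter and all spliced to a common coding exon, and the promoter before exon IV is widely studied for its response to neuronal activity. The Trk receptor genes are long and also give truncated receptors that lack the kinase domain. Vgf is induced by neurotrophins, and its product is cut into peptides that neurons release.

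The sequences of 8 peaks are shown because they carry the contrasts described below: the pair behind the third Bdnf first exon, the start-site peaks of the receptors and of Vgf, the intronic receptor peaks of low IDR and the peak with the exact EGR1 motif. EGR1 binds the 9-base words GCGTGGGCG and GCGGGGGCG, which were searched on both strands and which can overlap the GC-box word GGGCGG. Capitals mark the words of each peak with the fewest mismatches to either motif word, read on either strand. The letters are the RefSeq reference sequence of GRCm38.p6 (mm10), and bases of untranslated regions were cut off 2 of the peaks.
Bdnf, first peak, chr2:109677473-109677736, mm10, plus strand: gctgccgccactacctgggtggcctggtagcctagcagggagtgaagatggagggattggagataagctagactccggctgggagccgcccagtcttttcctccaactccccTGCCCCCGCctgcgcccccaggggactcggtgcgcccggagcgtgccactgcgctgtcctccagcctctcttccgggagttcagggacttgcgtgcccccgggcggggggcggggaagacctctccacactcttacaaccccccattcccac
Bdnf, second peak, chr2:109678161-109678424, mm10, plus strand: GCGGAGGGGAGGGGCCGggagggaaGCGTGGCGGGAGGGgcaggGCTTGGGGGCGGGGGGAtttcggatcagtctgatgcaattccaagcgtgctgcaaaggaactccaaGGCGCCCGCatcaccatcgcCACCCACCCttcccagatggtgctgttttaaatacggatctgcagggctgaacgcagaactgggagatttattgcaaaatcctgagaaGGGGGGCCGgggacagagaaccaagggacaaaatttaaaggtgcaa
Ntrk2, start-site peak without its UTR bases, chr13:58807593-58807696, mm10, plus strand: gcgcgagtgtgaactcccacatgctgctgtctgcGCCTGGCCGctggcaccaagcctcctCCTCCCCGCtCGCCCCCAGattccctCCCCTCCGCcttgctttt
Ntrk2, first peak of the distal intron, chr13:59073963-59074226, mm10, plus strand: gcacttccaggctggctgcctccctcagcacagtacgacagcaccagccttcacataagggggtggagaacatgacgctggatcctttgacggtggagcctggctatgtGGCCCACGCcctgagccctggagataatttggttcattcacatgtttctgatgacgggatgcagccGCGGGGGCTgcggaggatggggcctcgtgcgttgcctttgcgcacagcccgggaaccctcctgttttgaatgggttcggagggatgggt
Ntrk3, start-site peak, chr7:78577379-78577628, mm10, plus strand: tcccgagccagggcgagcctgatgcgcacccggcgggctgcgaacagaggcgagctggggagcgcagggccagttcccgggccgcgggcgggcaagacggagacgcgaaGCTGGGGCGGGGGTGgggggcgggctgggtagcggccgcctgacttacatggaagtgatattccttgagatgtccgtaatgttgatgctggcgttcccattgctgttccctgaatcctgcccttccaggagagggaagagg
Ntrk3, intronic peak of lowest IDR, chr7:78597213-78597476, mm10, plus strand: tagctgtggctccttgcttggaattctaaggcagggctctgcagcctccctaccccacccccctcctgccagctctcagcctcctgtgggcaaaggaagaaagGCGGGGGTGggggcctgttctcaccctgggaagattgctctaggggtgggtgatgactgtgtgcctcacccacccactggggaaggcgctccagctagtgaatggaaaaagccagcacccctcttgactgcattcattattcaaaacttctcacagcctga
Vgf, peak upstream of the main start, chr5:137028832-137029081, mm10, plus strand: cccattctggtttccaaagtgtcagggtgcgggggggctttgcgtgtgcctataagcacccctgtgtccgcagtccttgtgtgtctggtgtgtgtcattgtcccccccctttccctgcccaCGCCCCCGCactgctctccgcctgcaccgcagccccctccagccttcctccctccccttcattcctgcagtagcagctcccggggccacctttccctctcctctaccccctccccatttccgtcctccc
Vgf, start-site peak without its UTR bases, chr5:137030483-137030700, mm10, plus strand: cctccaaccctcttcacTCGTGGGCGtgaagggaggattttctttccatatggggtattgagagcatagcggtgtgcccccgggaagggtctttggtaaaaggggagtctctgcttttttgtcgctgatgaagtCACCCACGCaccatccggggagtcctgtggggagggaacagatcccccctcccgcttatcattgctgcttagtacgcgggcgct

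The 16 peaks were spread unevenly over the 6 genes. Ntrk3 held 6 peaks, Vgf 4, Ntrk2 3, Bdnf 2, Ntf3 1 and Ngfr 0, and all 16 centres lay inside a gene body. Of all 21938 protein-coding genes, 39.6% had a peak by the same rule, and the share rose with gene length, from 30.4% of genes as short as Vgf to 68% of genes as long as Ntrk3. Each gene was therefore set beside the genes within a factor of 1.5 of its own length. Among the 4218 genes as short as Vgf (6.96 kb) the median was 0 peaks, and 0.877% had at least the 4 peaks of Vgf. Among the 309 genes as long as Ntrk3 (562 kb) the median was 1 peak, and 3.56% had at least 6. This count holds for the GENCODE gene only, since with the shorter RefSeq gene Ntrk3 kept 3 of its 6 peaks, the same number as Ntrk2. Ntrk2 (327 kb) was less set apart, since 18.8% of 654 genes of like length had at least 3 peaks. For Bdnf (52.3 kb), 15.2% of 3552 genes of like length had at least 2 peaks. The single peak of Ntf3 (65.5 kb) was matched or exceeded by 50.1% of 3119 such genes. Ngfr (18.9 kb) was among the majority without a peak, since 39.9% of 4852 genes of its length had one.

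**Figure D1:**
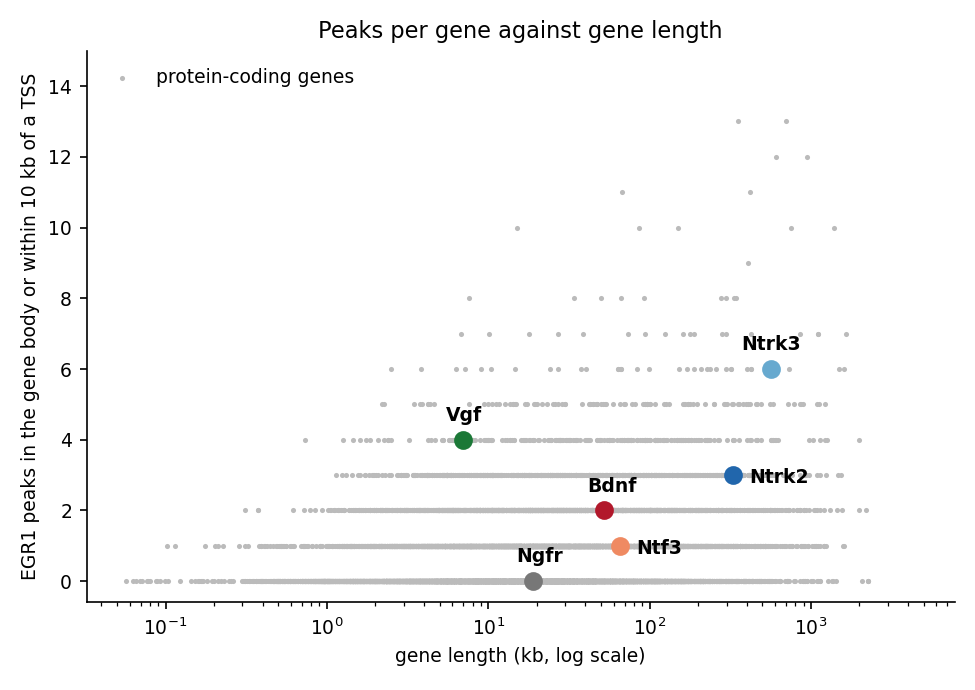
Peaks per protein-coding gene (vertical axis, number of peaks by the assignment rule) against gene length (horizontal axis, kb on a log scale), each grey point a gene and each coloured point a gene of the neurotrophin system. Vgf, with 4 peaks in 6.96 kb, lies high for its length, and 2 very long genes above the axis limit of 15 are not drawn.

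**Figure D2:**
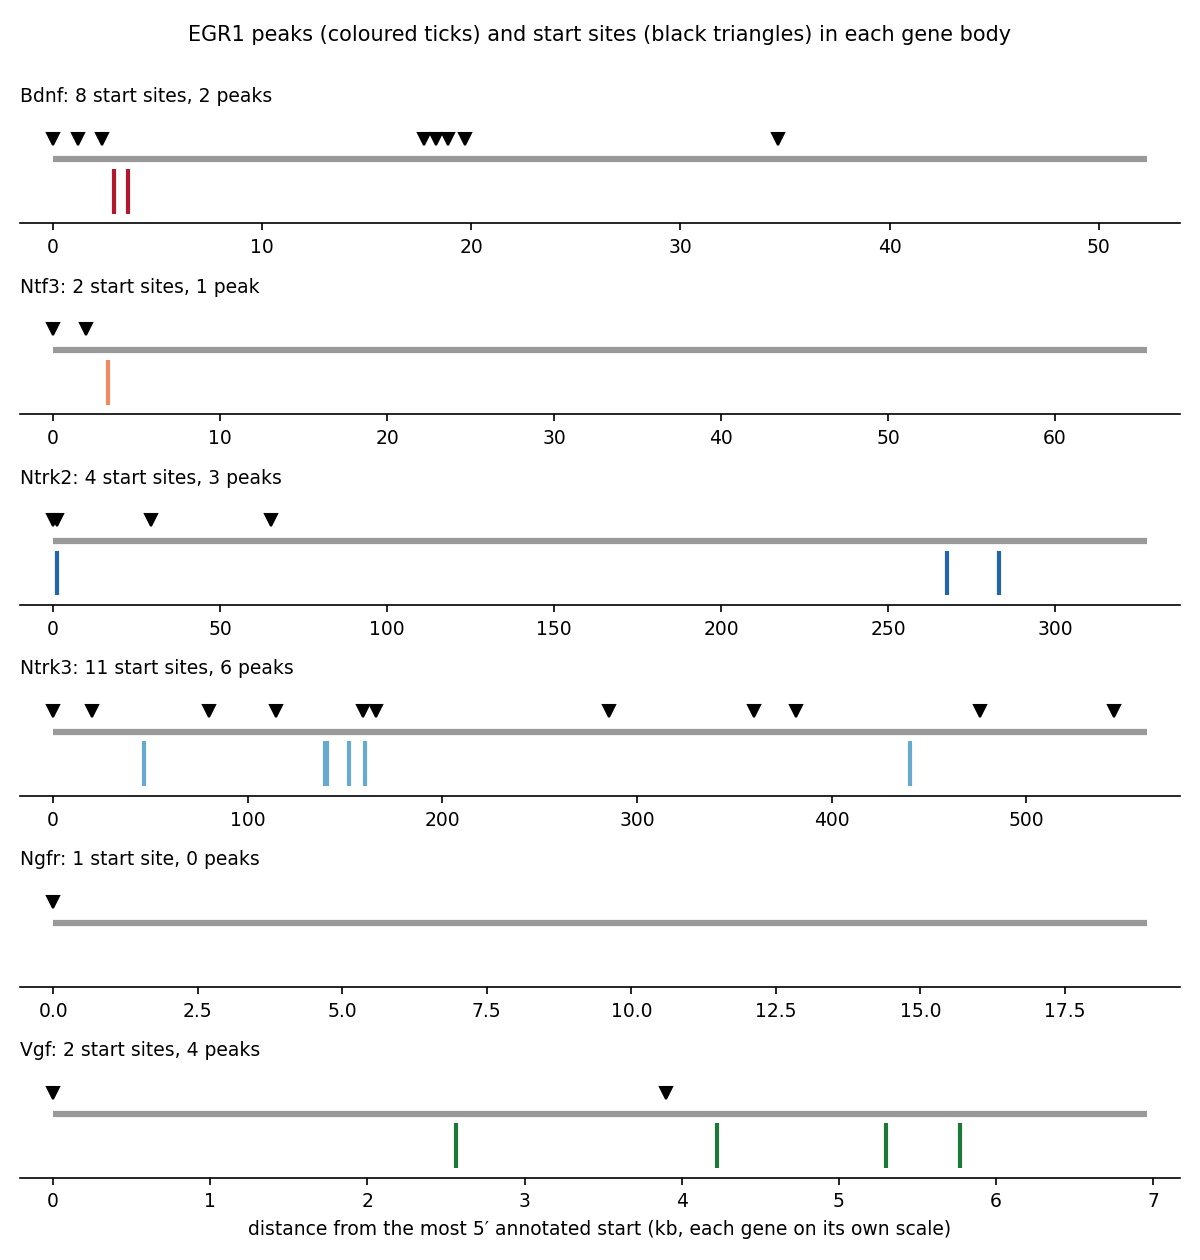
Positions of EGR1 peak centres (coloured ticks) and of start sites (black triangles, starts within 500 bp of each other drawn as 1) along each gene, in kb from its most 5′ start, with each gene on its own scale. The 2 Bdnf peaks fall after the third of 8 start sites, the Ntrk2 peaks fall at the second start site and far down the gene, and Ngfr has none.

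Start sites were taken as annotated starts grouped within 500 bp, which gave 28 sites over the 6 genes. A peak centre lay within 500 bp of 3 of them, 1 each in Ntrk2, Ntrk3 and Vgf. That share was 10.7% (exact 95% binomial interval 2.27 to 28.2%, counting error only), against 11.6% of the 52546 start sites of all protein-coding genes. The 6 genes as a group were thus not distinguishable from the background in peaks at start sites. For 7 of the 16 peaks the centre lay over 2 kb from every TSS of any gene, or 43.8% (interval 19.8 to 70.1%) against 36.4% of all peaks. Of the 16 centres, 14 were intronic and 2 lay in a coding exon, both in Vgf, which is 12.5% (interval 1.55 to 38.3%) against 4.78% of all peaks.

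At Bdnf (ENSMUSG00000048482.14, chr2:109674700-109727007, plus strand), both peaks sat in the intron that follows the third first exon. The annotation gave 11 transcripts from 8 start sites, in 2 clusters and 1 outlying site. Sites at 0, 1.2 and 2.33 kb from the gene's start, which precede exons I, II and III in the usual numbering, formed the upstream cluster. After a gap, sites at 17.7, 18.3, 18.9 and 19.7 kb formed the downstream cluster, of which the first precedes exon IV, and the last site lay at 34.7 kb. The first Bdnf peak (chr2:109677473-109677736) had an IDR of 0.00209, and 67.2% of all peaks had an IDR at or below it. Its centre was 572 bp downstream of the third start site (Bdnf-206), and its near edge was 248 bp past the end of that first exon. The second peak (chr2:109678161-109678424) had an IDR of 0.0071, at the 83.5 percentile, and its centre was 1260 bp downstream of the same site. The 2 Bdnf centres were 688 bp apart, and both peaks lay within the introns of 5 of the 11 transcripts. Only these 2 peaks lay near the gene, and the next nearest was 311521 bp from its body.

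None of the 8 Bdnf start sites had a peak centre within 500 bp, and 1, the third, had one within 1 kb. The start site before exon IV was 14144 bp from the nearest peak centre, and the following 3 sites were 14735, 15271 and 16117 bp away. The last start site was 31091 bp from the nearest centre. The downstream cluster, which includes the activity-regulated exon IV promoter, therefore had no EGR1 peak in this list. A peak away from the start sites is not rare in genes with many of them. Of the 2434 protein-coding genes with 5 or more start sites, 44.8% had a peak within 500 bp of at least 1 site and 19% had a peak by the assignment rule but none at a site. The antisense gene Gm45346 starts 1013 bp from the centre of the first Bdnf peak, on the opposite strand.

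**Figure D3:**
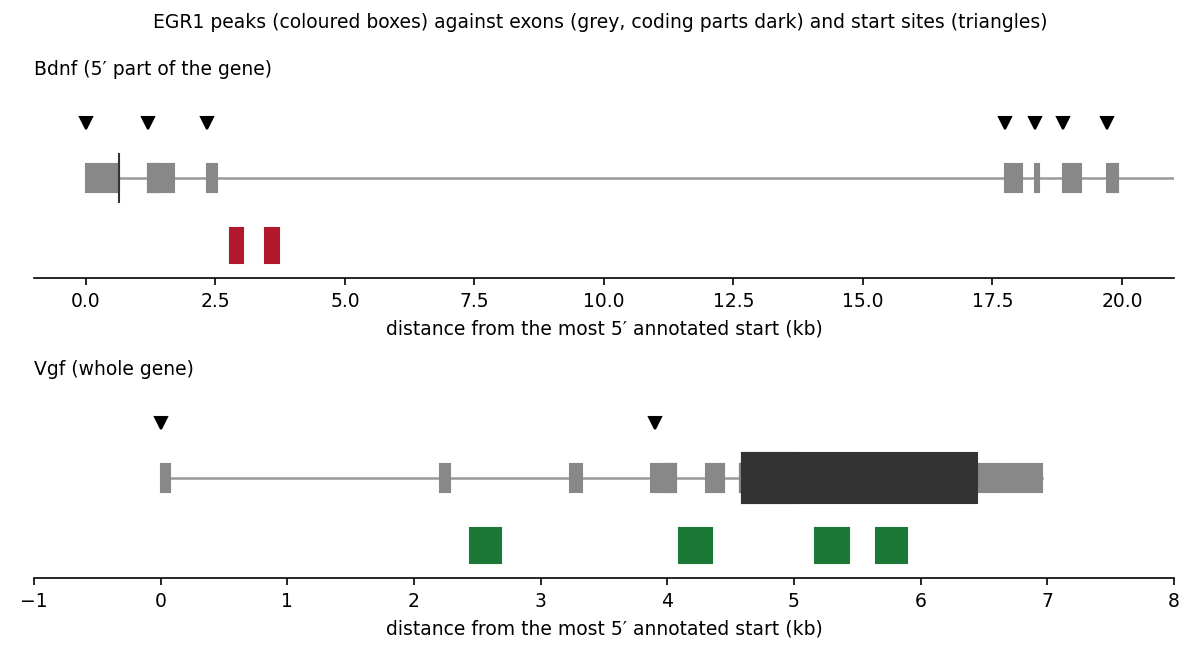
EGR1 peaks (coloured boxes, drawn to scale) against exons (grey, coding parts dark) and start sites (triangles) in the 5′ part of Bdnf and in the whole of Vgf, in kb from the most 5′ start. The Bdnf peaks lie between the third start site at 2.33 kb and the fourth at 17.7 kb, and 2 of the 4 Vgf peaks lie in its coding exon.

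The 2 Bdnf peaks differed in sequence. The first, shown above, was GC-rich at 67.4%, held 15 CpG dinucleotides and had 3 GGGCGG words. It had a single word at 1 mismatch from the EGR1 motif, GCGGGGGCA on the minus strand, 15 bp from the peak centre. The second was 58.7% GC with 13 CpG and had no word closer than 2 mismatches, of which it had 10. No exact EGR1 motif occurred anywhere within the 62.3 kb formed by Bdnf and its start-site flanks. The loci of Ntf3 (75.5 kb), Ntrk3 (572 kb) and Ngfr (28.9 kb) also held none, so this was not particular to Bdnf. Neither peak held a cyclic-AMP response element, TGACGTCA. Only 1.3% of all peaks held this word, so its absence does not set the Bdnf peaks apart.

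Ntf3 (ENSMUSG00000049107.13, chr6:126101412-126166910, minus strand), which encodes neurotrophin-3, had 1 peak at chr6:126163511-126163774 with an IDR of 0.00446, at the 76.9 percentile. It lay in an intron of all 3 transcripts, 1318 bp downstream of the start of Ntf3-203. In the RefSeq annotation a Ntf3 start lay 240 bp from its centre, so whether it counts as a start-site peak turns on the annotation. The peak was 51.5% GC, below the lower quartile of all peaks (52.8%), with a closest EGR1 word at 2 mismatches. The next nearest peak was 389940 bp from the gene body. Bdnf and Ntf3 thus had only peaks with an IDR above the median of all peaks, 0.000321.

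Ntrk2 (ENSMUSG00000055254.15, chr13:58806569-59133970, plus strand), which encodes the BDNF receptor TrkB, had the peak of lowest IDR among the 16. The peak at chr13:58807593-58807797 had an IDR of 2.11e-07, and 11.5% of all peaks had an IDR at or below it. Its centre was 2 bp upstream of the start of Ntrk2-201, in the second of 4 start sites, from which 5 of the 10 transcripts begin. The starts grouped in that site run from position 58807697 to 58808691. Of its transcripts, only Ntrk2-201 and Ntrk2-205 begin within 500 bp of the centre. The first start site, 1.13 kb upstream, from which 3 transcripts begin, had no peak within 500 bp. The peak held 15 CpG with an observed over expected CpG ratio of 0.83, higher than or equal to 75.2% of all peaks. It had no word nearer to the EGR1 motif than 2 mismatches, although it had 15 such words, most of them downstream of the start, and 28.8% of the peak was masked as repeat.

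The other 2 Ntrk2 peaks lay deep in the gene, far from any annotated Ntrk2 start. The peak at chr13:59073963-59074226 had an IDR of 1.94e-06, at the 24.5 percentile, and lay 267525 bp from the gene's start, in an intron of 2 of the 10 transcripts. Its nearest Ntrk2 start was 202359 bp away, and it overlapped the antisense gene 4930415C11Rik. It had 2 words at 1 mismatch, GCGTGGGCC at 18 bp from the centre on the minus strand and GCGGGGGCT at 48 bp on the plus strand. It also held 3 TGACG words, the core of the cyclic-AMP response element, and 1 other peak of the 16 held any, against 19.6% of all peaks. The third Ntrk2 peak, chr13:59089454-59089715, had a far higher IDR of 0.00533 and a CpG ratio of 0.10, below or equal to which lay 4.3% of all peaks. Its closest word was GAGTGGGCG, 59 bp from the centre, and its edge was 468 bp from an element in the RefSeq annotation that is taken from the VISTA enhancer collection. The exact EGR1 motif occurred 2 times in the Ntrk2 locus, at chr13:58847576-58847584 and chr13:58948199-58948207, and neither copy lay in a peak. Their distances to the nearest peak centre were 39885 and 125891 bp. Of the 7559 exact motifs on the assembled chromosomes, 28.4% lay inside a peak, so a motif without a peak is the more common case.

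Ntrk3 (ENSMUSG00000059146.12, chr7:78175959-78738012, minus strand), which encodes the neurotrophin-3 receptor TrkC, had 6 peaks, of which 4 lay upstream of the start site with the most transcripts. Its 20 transcripts begin at 11 start sites, and the fifth, 159 kb into the annotated gene, gave 7 of them. The peak at chr7:78577379-78577628 lay 280 bp downstream of Ntrk3-206 at that site and was the only Ntrk3 peak within 500 bp of a start. Its IDR was 0.0111, at the 90.2 percentile, so this start-site peak was among the less reproducible of the list. It was 66.8% GC with a CpG ratio of 0.79, and 2 overlapping words at 1 mismatch, GCTGGGGCG and GCGGGGGTG, lay 11 and 5 bp from its centre.

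The lowest IDR in Ntrk3 belonged to an intronic peak. The peak at chr7:78597213-78597476 had an IDR of 3.16e-07, at the 14.7 percentile, and its centre lay 18646 bp upstream of the nearest start, Ntrk3-220. In contrast to the start-site peak it was CpG-poor, with 2 CpG and a ratio of 0.09, and its closest word was GCGGGGGTG, 24 bp from the centre. A companion peak with its centre 936 bp away (chr7:78598156-78598405) had an IDR of 0.000308, a ratio of 0.47 and a CCGTGGGCG word 8 bp from its centre. Another peak of this stretch, chr7:78586041-78586304, had an IDR of 0.00022 and lay 7474 bp upstream of Ntrk3-220 with a GAGGGGGCG word 10 bp from its centre. The remaining 2 peaks lay far from these. The peak at chr7:78691217-78691466 had an IDR of 0.000663, 49.6% GC and no word closer than 2 mismatches, and the one at chr7:78297467-78297716, in the 3′ part of the gene, had an IDR of 0.0041 and a GAGGGGGCG word.

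The assignment of 3 of these 6 peaks depends on the annotation. RefSeq ends Ntrk3 at chr7:78179986-78581034 and gives the region upstream to a separate long non-coding RNA gene, E430016F16Rik (chr7:78581066-78718220), on the same strand. 4 peaks have their centres in E430016F16Rik by RefSeq, and 3 of them are over 10 kb from any RefSeq start of Ntrk3. The other, chr7:78586041-78586304, is 5138 bp from a RefSeq start and stays assigned to Ntrk3. With RefSeq models 13 of the 16 peaks were kept, and Ntrk3 had 3 of them.

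Ngfr (ENSMUSG00000000120.6, chr11:95568818-95587735, minus strand), which encodes p75, was the only one of the 6 without a peak. Its single start site was 22733 bp from the nearest peak centre, in chr11:95610337-95610600, whose IDR of 0.0192 was close to the highest in the list. The absence of a peak says that none passed the reproducibility limit of 2% here, not that EGR1 is absent from the gene.

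Vgf (ENSMUSG00000037428.14, chr5:137026392-137033351, plus strand) had 4 peaks over its 6.96 kb, or 5.75 per 10 kb, the densest of the 6 genes. The most upstream, chr5:137028832-137029081, had an IDR of 6.08e-07, at the 20.1 percentile, and lay 1339 bp upstream of the start of Vgf-201, in an intron of the longer transcript Vgf-204. It was the only one of the 16 peaks with an exact EGR1 motif, GCGGGGGCG on the minus strand at chr5:137028953-137028961, with its middle 1 bp from the peak centre. The start-site peak, chr5:137030483-137030746, had an IDR of 3.36e-05 and its centre was 87 bp upstream of Vgf-203. That centre lay downstream of the other starts of the same site, Vgf-201 and Vgf-202, in an intron of 3 of the 4 transcripts. The nearest RefSeq start was 319 bp away. This peak held 2 words at 1 mismatch, TCGTGGGCG and GCGTGGGTG, at 110 and 7 bp from the centre.

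The other 2 Vgf peaks lay in the coding exon, with their centres 468 bp apart. The first, chr5:137031562-137031825, had an IDR of 0.0148, at the 94.8 percentile, the highest of the 16, and a CCGGGGGCG word. The second, chr5:137032037-137032286, had an IDR of 6.7e-07, at the 20.4 percentile, and was the most CpG-dense of the 16, with 24 CpG, 69.6% GC and a ratio of 0.99, at the 92.1 percentile of all peaks. Its closest words to the EGR1 motif had 1 mismatch, and 32.8% of the peak was masked as repeat. The next peak outside the rule, chr5:137046102-137046365, had an IDR of 0.000715 and lay 12882 bp past the end of Vgf and 15532 bp from its nearest start.

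**Figure D4:**
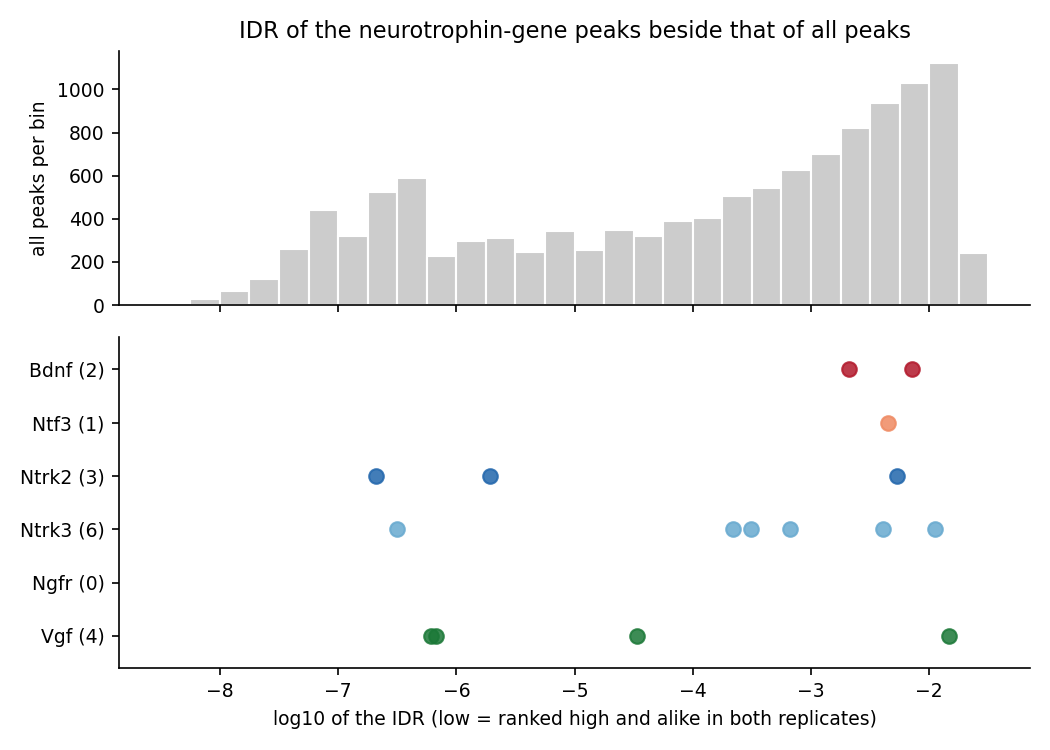
Number of all 12014 peaks per bin of log10 IDR (upper panel, grey bars) and the log10 IDR of each of the 16 peaks by gene (lower panel, number of peaks in brackets). By the GENCODE assignment, peaks of low IDR belong to Ntrk2, Ntrk3 and Vgf. The Bdnf and Ntf3 peaks lie towards the upper end of the range, where Ntrk2, Ntrk3 and Vgf also have peaks.

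By reproducibility the 16 peaks covered most of the range of the list. Their median IDR was 0.000486 against 0.000321 of all peaks, and 8 of 16 lay at or below that median. At an IDR of 0.001 or less, 9 of the 16 remained, against 59.6% of all peaks. By GENCODE these 9 belonged to 3 genes: Ntrk2, Ntrk3 and Vgf. With RefSeq models the Ntrk3 peaks at 3.16e-07, 0.000308 and 0.000663 dropped out, and the lowest IDR left in Ntrk3 was 0.00022. The 3 peaks of Bdnf and Ntf3, at 0.00209, 0.0071 and 0.00446, overlapped the upper range of the other genes. Ntrk2 and Ntrk3 each had a peak between these values, at 0.00533 and 0.0041, and Ntrk3 and Vgf each had a peak above them, at 0.0111 and 0.0148. Ntf5, the neurotrophin-4 gene of the wider pathway, had a peak of lower IDR, 1.21e-06.

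Across the 16 peaks the exact EGR1 motif was found in 1, or 6.25% (exact 95% binomial interval 0.158 to 30.2%), against 16.6% of all 11938 peaks on the assembled chromosomes. The background share lies inside that interval. The best word had 1 mismatch in 11 of the 16 peaks, against 53.2% of all, and 2 mismatches in 4, against 28.3%. The motif is less frequent away from start sites: 22.2% of peaks within 2 kb of a TSS held it, and 6.87% of the others. GGGCGG was found in 6 of 16 peaks against 55.8% of all, and the AP-1 word TGANTCA and the E-box word CACGTG were found in 0 of 16 against 6.48% and 7.46%. The promoter table used here held 11 RefSeq windows of Bdnf, Ntf3, Ntrk2 and Ngfr, each from 250 bases before to 50 after a start. It left out some RefSeq starts of these genes, among them those 2 bp from the Ntrk2 start-site peak and 240 bp from the Ntf3 peak. Of these 11 windows, 0 held an exact motif, against 3.47% of all 32851 windows in the table, and 0 overlapped a peak.

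**Figure D5:**
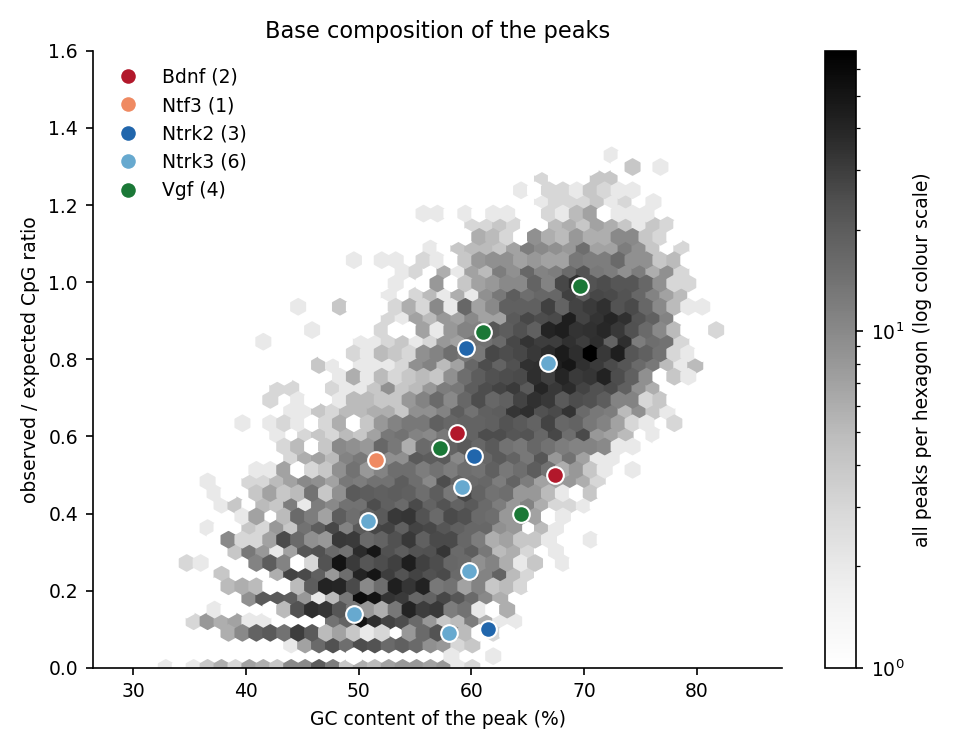
GC content (horizontal axis, %) and observed over expected CpG ratio (vertical axis) of each of the 16 peaks (coloured points) over the density of all 11938 peaks (grey hexagons, log colour scale). The 16 points span most of the cloud, from a CpG ratio of 0.09 in an Ntrk3 intron by GENCODE to 0.99 in the Vgf coding exon.

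The base composition of the 16 peaks spread like that of the whole list. The median GC content was 59.7% (49.6 to 69.6%) against 60.4% of all peaks, and the median CpG ratio was 0.52 (0.09 to 0.99) against 0.60. The plot of composition holds members at both ends. The lowest ratios, 0.09, 0.10 and 0.14, were of intronic peaks in Ntrk3, Ntrk2 and Ntrk3 by GENCODE. RefSeq does not assign the peaks at 0.09 and 0.14 to Ntrk3. The highest ratios, 0.99 and 0.87, were of the coding-exon peaks of Vgf. Over the whole list the median ratio was 0.76 for peaks up to 2 kb from a TSS and 0.29 for those farther away. Of the 16 peaks, 6 had another centre within 1 kb, in pairs at Bdnf, Ntrk3 and Vgf, against 13.8% of all peaks. Each peak of a pair counts as the neighbour of the other, so these 6 are not independent.

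The wider pathway list covered other ligands, receptors, processing, sorting and granule proteins, p75 partners, and adaptors and other Trk signalling proteins. Of its 37 genes, 24 had a peak, 64.9% (interval 47.5 to 79.8%) against 39.6% of all genes. Genes of their lengths had a peak in 45.9% of cases on average over the list. By role, 11 of the 15 genes grouped as adaptors, 5 of the 5 sorting genes, 4 of the 5 processing genes and 3 of the 8 p75 partners had one. Among genes of like length, the share with a peak ran from 33 to 56.8% over the adaptor group and from 52 to 70.9% over the sorting genes. It ran from 39.5 to 66.6% over the processing genes and from 28 to 60.2% over the p75 partners. The list was chosen with earlier results of these data known, so its count is a description. The ligand gene Ntf5 (neurotrophin-4) had 1 peak, chr7:45415790-45416053, with an IDR of 1.21e-06, in its coding exon and 2017 bp from a start. 3 genes of the adaptor group, which act downstream of Trk receptors, had start-site peaks with an IDR in the lowest 10% of the list. The group is broader than adaptors and takes in signalling enzymes such as the phospholipase C encoded by Plcg1. The 3 genes were Frs2 (IDR 5.99e-08, 98 bp upstream of a start), Grb2 (IDR 8.36e-08, 57 bp upstream) and Plcg1 (IDR 4.66e-08, 41 bp upstream). The Grb2 and Plcg1 peaks each held an exact EGR1 motif. Of the 50 pathway peaks 12 held it, and so did 22.2% of all peaks within 2 kb of a TSS. These 3 genes were selected by their IDR, and the share of all genes with such a peak was not computed.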

How the data were processed

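EGR1 ChIP-seq peaks from frontal cortex of 6-week-old hybrid mice were taken as a merged list of 2 ChIP experiments. After quality trimming, the authors aligned reads with Bowtie (mm10), used SPP as the peak caller and kept peaks by IDR between the replicates, with a limit of 2%. The submitters' processing notes name Bowtie2 2.2.9 and bedtools 2.26.0. The deposited value of each peak is its IDR, a p-value-like quantity read as a q-value. No counts, heights or values per experiment were used, and positions were read as BED and printed from 1. 76 peaks on unplaced scaffolds were left out of sequence results.

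Peaks were assigned to a gene when the centre lay in its body or within 10 kb of a start in GENCODE M21 (GRCm38.p6). Starts within 500 bp were grouped, and a site had a peak when a centre lay within 500 bp. Sequence was read from the RefSeq GRCm38.p6 genome with pysam 0.24.0 and samtools 1.23.1, and tables were made with pandas 2.3.3, numpy 2.4.6, scipy 1.17.1 and Python 3.11.15. The steps were tested on simulated data. The RefSeq promoter table, which does not hold every start, matched 4 of the 6 genes. Each share was set beside the same share over all genes, start sites or peaks, with exact Clopper-Pearson intervals at 95% that cover counting error only and treat peaks of a gene as independent, which they are not. No significance test was run, since a single list holds no replicates. All 6 genes and their peaks are named; of 37 pathway genes, those with a start-site peak among the lowest 10% of IDR, and Ntf5. Some items that the naming rule covers, and a peak sequence, are not reported here. The genes, lists and alternatives were chosen with earlier results of these data known.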

Additional observations from a re-analysis of the deposited data

How the results depend on the processing

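Of 66 alternative settings, 54 left a count within 1.5 times its value and 12 moved it. Keeping peaks with an IDR of 0.001 or less left 9 of the 16 peaks and 3 of the 5 genes with one, and keeping the lowest 50% of IDR left 8 peaks and 3 genes. Only counting peaks within 2 kb of a TSS gave 9 peaks, and within 10 kb gave 10, since the distal intronic peaks of the receptor genes drop out. A reach of 25 kb gave 18 peaks and all 6 genes, and the share of all genes at that reach was not computed. The peak that it added at Ngfr had an IDR of 0.0192. The 3 start sites with a peak became 7 of 28 at 2 kb, against 16.3% of all protein-coding start sites at that distance. They became 6 of 37 with starts grouped within 100 bp, and 9 of 49 with each start on its own. Other transcript sets changed the number of sites more than the count. It was 3 of 17 with protein-coding transcripts only, 3 of 16 with basic transcripts only and 4 of 22 with RefSeq models. For these groupings and transcript sets no share over all genes is given, so they cannot be set beside a background. For Bdnf the count of 0 start sites became 1 at 1 kb and 2 at 2 kb. With 1 base allowed to differ, 12 of the 16 peaks held the EGR1 motif. Most of the whole list also passes at that setting, since the best word had 0 mismatches in 16.6% of all peaks and 1 in 53.2%. RefSeq gene models, chosen after seeing the data, kept 13 peaks. No paired analysis was possible because the list merges both ChIP experiments and holds no value for either, so neither could be left out. The list holds only peaks that passed the IDR limit, without heights or read depth, so weaker binding at Ngfr or at the downstream Bdnf start sites was not detectable here.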
